A study of Homo sapiens with 32 samples.

Results

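Cytosolic and mitochondrial ribosomal protein genes are described here by their input RNA level and by the enrichment of their RNA in an m6A immunoprecipitation. Members were taken by symbol: cytosolic RPL and RPS genes and mitochondrial MRPL and MRPS genes, without pseudogene symbols and without the RPS6K kinases. Of 7978 genes in the count table, 65 met this rule, with 144 of its 26104 merged m6A peaks. They comprised 14 cytosolic large-subunit genes, 6 cytosolic small-subunit genes, 26 mitochondrial large-subunit genes, 15 mitochondrial small-subunit genes and 4 antisense or readthrough genes (MRPL20-AS1, RPL17-C18orf32, RPL36A-HNRNPH2 and RPS10-NUDT3).

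The study followed H1 and MEL1, which are established human embryonic stem cell lines, through differentiation toward pancreatic β cells. Stages sampled were S0 (undifferentiated), S3 (posterior foregut), S4 (pancreatic progenitor) and S6 (immature β-like), with 2 replicates per line and stage and no sorting named in the labels. From each of 16 RNA preparations, fragmented mRNA gave 1 input library and 1 library of RNA bound by an m6A antibody (IP), 32 libraries in all. The paper calls the samples biologically independent. Whether replicates of a line were separate differentiations is not stated in the labels, so every p-value below measures spread between these libraries only.

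Ribosomes translate mRNA into protein, and each is built of a large and a small subunit made of ribosomal RNA and many small proteins. Cytosolic ribosomes are assembled in the nucleolus from nuclear-encoded proteins, whereas mitochondrial ribosomes serve the few proteins encoded by the mitochondrial genome and take all their own proteins from nuclear genes. Cytosolic ribosomal protein mRNAs are short, abundant and start with a run of pyrimidines through which mTOR signalling controls their translation.

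The count table held input counts of 2652830 to 6879256 per library (median 4318760) and IP counts of 2378881 to 15674899 (median 13100407). A gene's input level is the sum of its merged-peak counts, given as CPM, the counts per 1e6 of the library after TMM scaling. Peak widths are not in the file, so levels are compared between libraries and not between genes. Member genes took 1.12% to 2.21% of the input counts (median 1.65%) and 0.573% to 1.42% of the IP counts (median 0.743%). The lowest input share, 1.12%, came from a MEL1 S4 library (95% exact Clopper-Pearson interval 1.11% to 1.13%). Intervals of this kind cover counting error only. Transcripts of the mitochondrial genome took another 11.6% to 41.0% of input counts, most in MEL1 S0.

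Only genes with a called peak are in the table, so the members are a part of each family. Among RefSeq protein-coding genes that fit the rule, 14 of 53 cytosolic large-subunit genes had a peak, 6 of 33 cytosolic small-subunit genes, 26 of 49 mitochondrial large-subunit genes and 15 of 28 mitochondrial small-subunit genes. RPLP0, RPLP1 and RPLP2 had none. All 65 members passed the filter on low counts (a total of 10), the lowest being MRPL40 with an input total of 23. A median of 2 peaks stood behind each member, and 28 members had 1. Cytosolic ribosomal protein genes have many near-identical processed pseudogenes, and how reads with several matches were counted is not stated, so some counts may belong to other loci. Antisense and readthrough genes overlap other genes, and the strand used in counting is not stated either.

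Stage labels were checked against marker genes. All 6 foregut markers of the list had peaks, and their summed input level went from 12.8 to 22.0 CPM at S0 to 1063 and 1017 CPM in H1 S3 and 3524 and 3516 CPM in MEL1 S3. Undifferentiated markers (7 of 8 measured, SOX2 the most abundant over all libraries, as for the genes so named below) summed to 3812 and 3602 CPM in H1 S0 and 5583 and 4598 CPM in MEL1 S0. They stood at 1653 to 1991 CPM in the 4 H1 S3 and S4 libraries and 349 to 509 CPM in those of MEL1, and at 969.5 and 937.4 CPM in H1 S6 and 524 and 527 CPM in MEL1 S6. Pancreatic progenitor markers (4 of 5 measured, SOX9 the most abundant, NKX6-1 without a peak) summed to 8.21 to 11.4 CPM at S0 and to 94.2 and 79.7 CPM in H1 S3, 73.6 and 72.6 CPM in H1 S4 and 27.3 and 24.7 CPM in H1 S6. In MEL1 they were at 42.5 and 40.4 CPM at S3, 43.7 and 45.4 CPM at S4 and 146.8 CPM in both S6 libraries, so that S4 was above S0 in both lines and the highest stage in neither. The 4 neuroendocrine markers, CHGA the most abundant, were highest at S6, at 1619 and 1599 CPM in H1 S6 and 902 and 918 CPM in MEL1 S6. Beta-like markers (3 of 5 measured, SLC2A1, which is not specific to these cells, the most abundant, with INS-IGF2 above it in 6 of the 16 libraries, both of MEL1 S6 among them) stood at 3832 and 3658 CPM in H1 S3, 734 and 814 CPM in MEL1 S3, 4434 and 4498 CPM in H1 S6 and 7213 and 7286 CPM in MEL1 S6, and INS and IAPP had no peak. These sums were not tested.

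The MEL1 S3 and S4 libraries stood apart. Hepatic markers (3 of 5 measured: AFP, the most abundant, VTN and APOB) summed to 17490 and 14830 CPM in MEL1 S3 and 43340 and 46370 CPM in MEL1 S4, against 56.4 to 156 CPM in the 4 H1 libraries of those stages. At S6 they stood at 1746 and 1657 CPM in MEL1 and 25.2 and 20.7 CPM in H1. ALB and SERPINA1 had no peak. Mesenchymal markers (2 of 4 measured, COL1A1 the most abundant) summed to 640.3 and 594.9 CPM in MEL1 S4 and to 38.5 to 161 CPM in the other 14 input libraries. The MEL1 S4 IP libraries were also the shallowest, with 2483580 and 2378881 counts. Some results that rest on these preparations, but not the line by stage interactions or the gene lists, are therefore given also without them, an alternative chosen after seeing the data, and the part of these transcripts in the results was not tested. In bulk RNA of this kind, fewer cells of a type and less RNA per cell cannot be told apart.

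Ranges over the 16 input libraries show how many reads stand behind a gene and give no order of transcript level. In the cytosolic large subunit RPL41, the smallest ribosomal protein, lay between 3624 and 8138 CPM, with S0 values of 7538 and 7418 CPM in H1 and 8138 and 7844 CPM in MEL1. RPL13A, which also acts outside the ribosome in interferon-induced translational silencing, ranged from 2488 to 7626 CPM, RPL10A, a protein of the L1 stalk, from 888 to 2038 CPM, and RPL4, a protein of the exit tunnel, from 0 to 3.70 CPM. In the small subunit RPS12 had 24.7 to 173 CPM, RPS2 2.75 to 22.7 CPM and RPS18 0.549 to 4.11 CPM.

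Among mitochondrial large-subunit genes the ranges were 57.5 to 136 CPM for MRPL14, 57.1 to 251 CPM for MRPL45, which tethers the ribosome to the inner membrane, 39.0 to 234 CPM for MRPL27 and 0 to 1.14 CPM for MRPL40. In the small subunit they were 109.6 to 1056 CPM for MRPS26, 158 to 371 CPM for MRPS2, 85.6 to 252 CPM for MRPS34 and 1.32 to 9.14 CPM for MRPS28. The readthrough and antisense genes gave 35.4 to 89.1 CPM (RPL17-C18orf32), 30.7 to 73.1 CPM (RPL36A-HNRNPH2), 27.6 to 65.02 CPM (MRPL20-AS1) and 1.84 to 29.6 CPM (RPS10-NUDT3).

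Summed over the 26 genes, the mitochondrial large subunit stood at 1688 and 1661 CPM in H1 S0 and 2340 and 2080 CPM in MEL1 S0. It then lay between 814.3 and 1144 CPM in all 12 later libraries, below each S0 library. The 15 mitochondrial small-subunit genes summed to 1367 and 1357 CPM in H1 S0 and 1165 and 1265 CPM in MEL1 S0. They later lay between 681.6 and 930.4 CPM, except for 1525 and 1721 CPM in MEL1 S6, where MRPS26 alone gave 819 and 1056 CPM. The 14 cytosolic large-subunit genes, of which RPL41 and RPL13A gave most counts, summed to 18710 and 18510 CPM in H1 S0 and 15050 and 14580 CPM in MEL1 S0. Their later sums were 8488 to 11360 CPM in H1 and 9086 to 15800 CPM in MEL1, so that the stages separated in H1 and overlapped in MEL1.

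**Figure D1:**
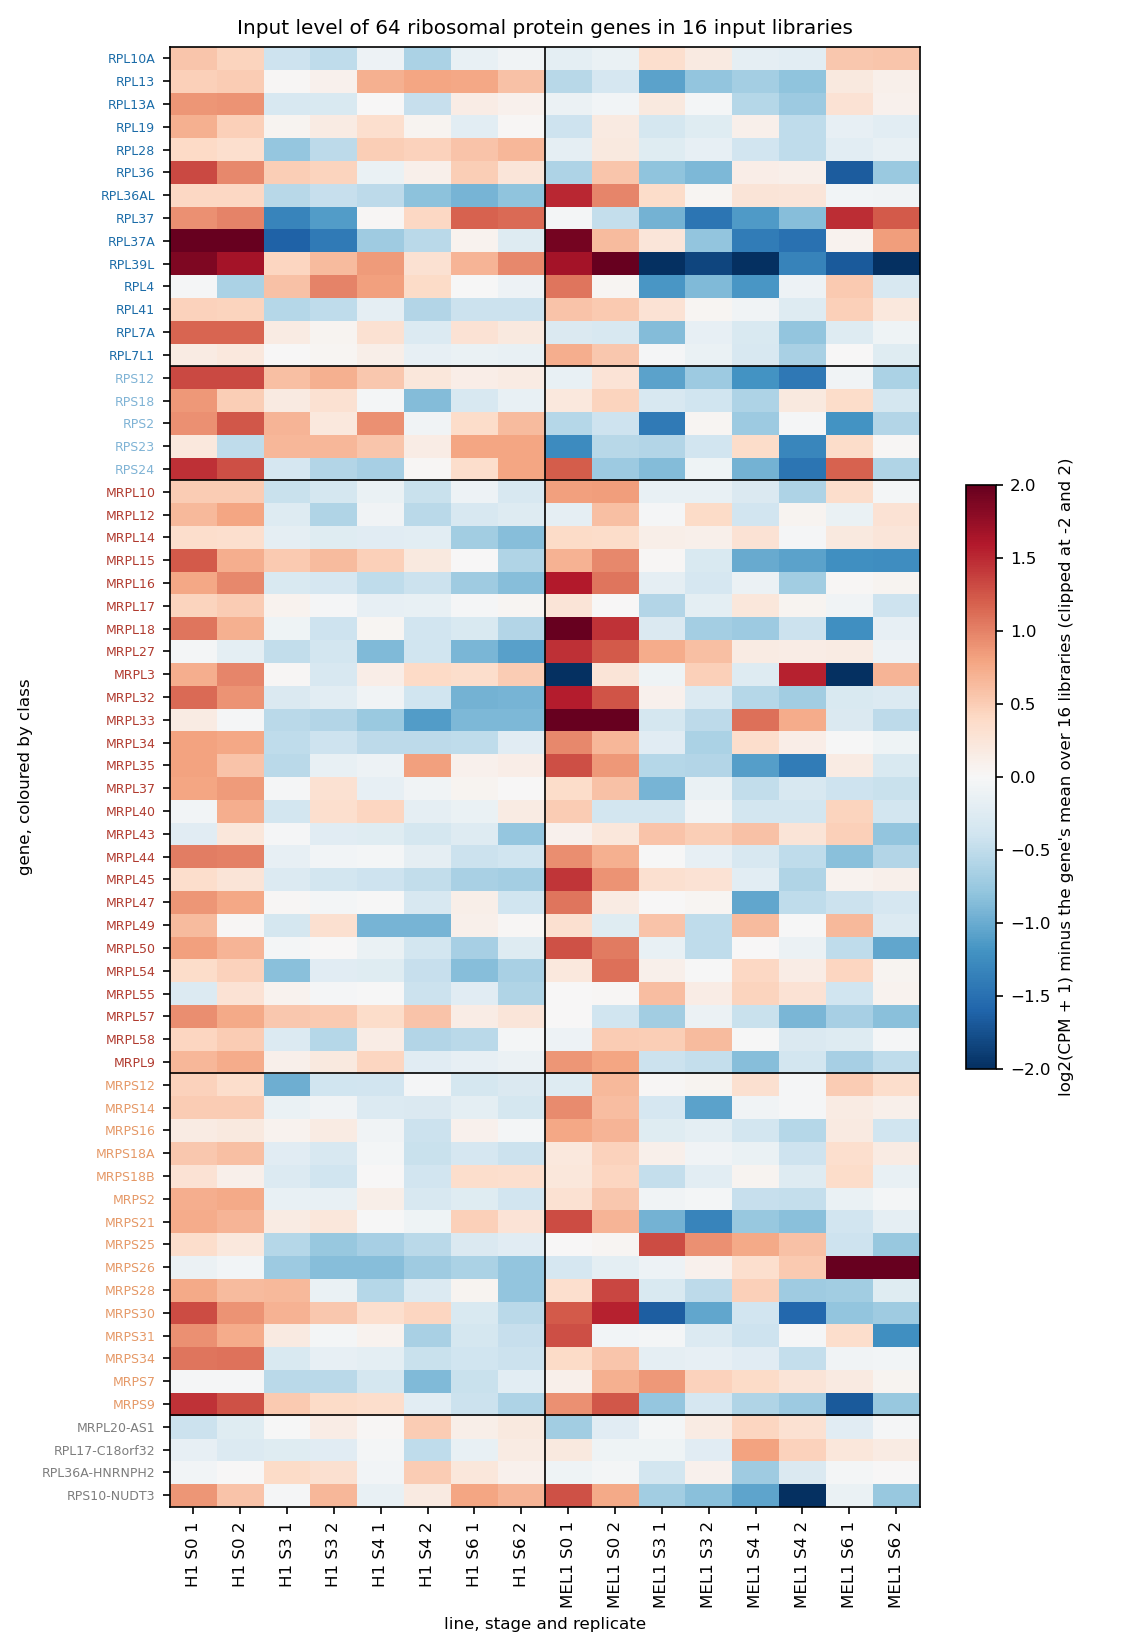
Input level of 64 of the 65 genes (log2 of CPM + 1, minus the gene's mean over the 16 input libraries, clipped at -2 and 2), with genes grouped by class and libraries by line, stage and replicate. MRPL16, MRPL32 and MRPL44 are highest in the 4 S0 libraries, and MRPS26 is highest in the 2 MEL1 S6 libraries.

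Promoter sequence adds a feature that the choice of members did not use. RefSeq promoters of GRCh38.p14, 250 bases before to 50 after each gene's first listed start, matched 56 of the 65 members; RPL37, RPL39L, RPS2, MRPL10, MRPL15, MRPL35, MRPS28 and RPS10-NUDT3 were among those not matched. A start at C followed by at least 4 more pyrimidines, the pattern of mTOR-regulated mRNAs, was present in 6 of 12 cytosolic large-subunit promoters and 4 of 4 cytosolic small-subunit promoters. It was present in 2 of 23 mitochondrial large-subunit promoters (MRPL44 and MRPL45), 0 of 14 mitochondrial small-subunit promoters and 4.04% of 27305 genes. The windows below run from 10 bases before the start to 19 after it, with the pyrimidine run from the start in capitals, and show 4 cytosolic genes with a run beside mitochondrial genes that fell.
RPL41 (strand plus, chr12:56116623-56116652): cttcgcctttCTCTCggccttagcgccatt
RPL13A (strand plus, chr19:49487598-49487627): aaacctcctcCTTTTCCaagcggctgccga
RPS12 (strand plus, chr6:132814559-132814588): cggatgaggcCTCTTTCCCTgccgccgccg
RPS24 (strand plus, chr10:78033853-78033882): aatcgtggttCTCTTTTCCTCCTTggctgt
MRPL44 (strand plus, chr2:223957453-223957482): ccatcgttttCTCTCgtgcaatggcgtccg
MRPS9 (strand plus, chr2:105038059-105038088): tcacccctccggtcctggagctcccacagc
MRPS9 had no run and so carries no capitals. RPL10A, RPL19, RPL4 and RPL7L1 had no run from the start either, and those of RPL13 and RPL36AL were 2 and 3 bases long. A run that begins further downstream of the listed start, as in RPL10A, was not counted.

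The ETS-type motif CCGGAAG, searched on both strands, was found in 9 of 23 mitochondrial large-subunit and 7 of 14 mitochondrial small-subunit promoters, in 3 of 12 and 1 of 4 cytosolic promoters, and in 10.7% of all genes. The YY1-type motif AAGATGGC was found in 4 of 23 and 5 of 14 mitochondrial promoters, 1 of 12 and 0 of 4 cytosolic promoters and 3.03% of all genes. An NRF1-type motif, GCGC followed after any 2 bases by another GCGC, was found in 4 of 23, 1 of 14, 3 of 12 and 0 of 4, and in 8.78% of all genes. Matches describe letters in these windows and not bound sites. Windows from 2 genes that fell during differentiation show the ETS-type letters in capitals, read along the gene's strand.
MRPL33 (strand plus, chr2:27771700-27771729): cgggccgtgccCCGGAAGcagttgttgttg
MRPS34 (strand minus, chr16:1773187-1773216): cctcttcctcgCTTCCGGccgcgaccgaac
MRPS34 held 3 matches in its promoter, the most among the members, of which 1 is shown.

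From undifferentiated cells to posterior foregut, most ribosomal protein genes had a negative change (59 of 65, against 4059 of all 7973 genes tested). The test was fitted on 7973 genes over 16 input libraries with the line as a covariate, and a call needed an adjusted p below 0.1 together with a change of at least 2-fold. Of the 65 members, 20 were lower at S3 than at S0 (13.8% of all genes tested) and 0 were higher (15% of all genes tested). For higher genes, edgeR gave 1 member at an unadjusted p under 0.05, and DESeq2 called 0. Lower genes numbered 3 of 14 in the cytosolic large subunit, 2 of 6 in the cytosolic small subunit, 8 of 26 in the mitochondrial large subunit, 6 of 15 in the mitochondrial small subunit and 1 of 4 among the rest. Medians were -0.62, -0.79, -0.81, -0.69 and 0.02 on the log2 scale in that order, against -0.02 over all genes. Without the MEL1 S3 and S4 preparations 14 members were lower, and with H1 alone 18, with MEL1 alone 25. No share over all genes is given for these fits, which are not the fit by line that follows. With a stage change fitted for each line, 16 members were lower in H1, against 748 of 7973 genes. In MEL1 it was 21 members, against 1755 of 7973 genes. Scaling by library size only moved the median of all genes to 0.22 and left 14 members lower and 1 higher, with the same sign for the 4 subunit classes.

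**Figure D2:**
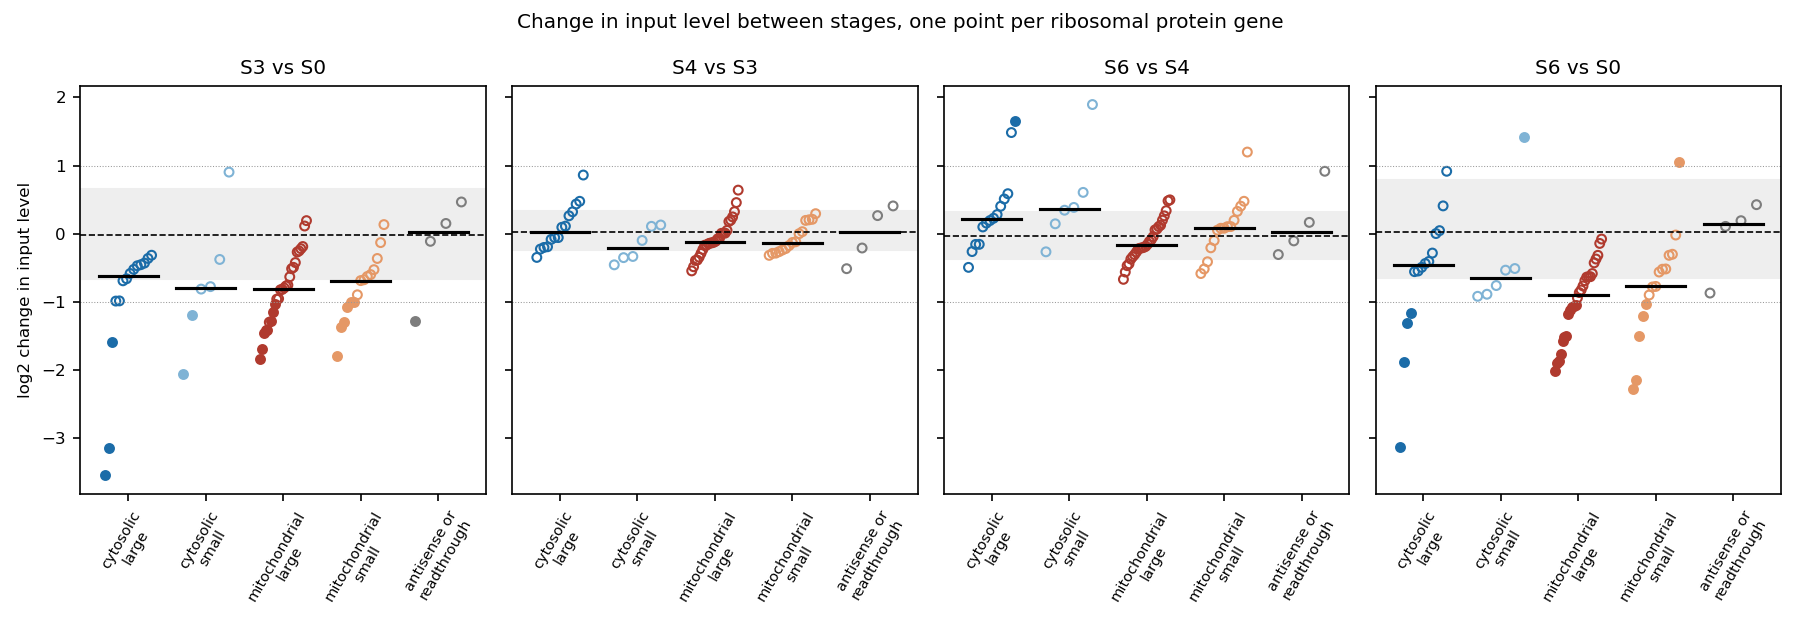
Log2 change in input level between stages for each gene (points, filled where the gene passed the test), by class, with the class median (bar), the median of all genes (dashed line) and their middle 50% (grey band). At S3 and S6 against S0 the 4 subunit medians lie between -0.90 and -0.47, and between S3 and S4 they lie between -0.22 and 0.02.

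In the cytosolic large subunit the genes that fell were RPL37, RPL37A and RPL39L. RPL37, a zinc-binding protein of the subunit, stood at 171 and 178 CPM in H1 and 87.4 and 63.97 CPM in MEL1 at S0 and at 35.3 and 40.6 CPM in H1 and 46.3 and 31.8 CPM in MEL1 at S3. Every S3 library was below every S0 library. RPL37 fell by 1.59 on the log2 scale (SE 0.30, adjusted p = 0.000635, edgeR quasi-likelihood test, Benjamini-Hochberg), and by more in H1 (-2.20) than in MEL1 (-0.96; adjusted p of the difference 0.00141 in the same test). RPL37A, a zinc-finger protein, had S0 counts of 98 and 89 in H1 and 84 and 30 in MEL1 and S3 counts of 3 and 4 in H1 and 19 and 8 in MEL1. These are low counts, with a fall of 3.14 on the log2 scale (SE 0.60, adjusted p = 0.000756, edgeR quasi-likelihood test, Benjamini-Hochberg).

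RPL39L is the paralog of RPL39, best known from testis. Its S0 counts were 62 and 57 in H1 and 63 and 88 in MEL1, and its S3 counts 25 and 28 in H1 and 0 and 1 in MEL1. It thus stayed measurable in H1 and was at or near 0 in MEL1, where S4 counts were 0 and 2 and S6 counts 1 and 0. H1 alone fell by 1.38 on the log2 scale (SE 0.44, adjusted p = 0.0191 by edgeR's quasi-likelihood test and Benjamini-Hochberg). A fold fitted for MEL1 would rest on 1 read and is no measured size. Of the other paralogs with a peak, RPL36AL went from 467 and 467 CPM in H1 and 1001 and 690.2 CPM in MEL1 to 238 and 256 CPM in H1 and 455 and 359 CPM in MEL1. All S3 libraries were below all S0 libraries, but the change of -0.99 missed 2-fold. RPL7L1, a paralog of RPL7 that acts in ribosome assembly, lay at 384 and 398 CPM in H1 and 569 and 499 CPM in MEL1 and then 346 and 352 CPM in H1 and 339 and 315 CPM in MEL1, a change of -0.45, also under 2-fold.

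In the cytosolic small subunit RPS24, mutated in some cases of Diamond-Blackfan anaemia, had counts of 27 and 25 in H1 and 26 and 3 in MEL1 at S0 and 6 and 4 in H1 and 2 and 7 in MEL1 at S3, with overlap between the stages. RPS24 fell by 2.05 on the log2 scale (SE 0.70, adjusted p = 0.0294, edgeR quasi-likelihood test, Benjamini-Hochberg), and was not called without MEL1 S0 replicate 1, where the change was -1.69.

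In the mitochondrial large subunit the genes that fell at S3 were MRPL16, MRPL18, MRPL32, MRPL33, MRPL34, MRPL35, MRPL44 and MRPL50. MRPL16, a protein near the catalytic centre, stood at 92.3 and 105 CPM in H1 and 163 and 114 CPM in MEL1 at S0 and 42.96 and 42.02 CPM in H1 and 47.3 and 41.97 CPM in MEL1 at S3. MRPL32, whose maturation by a mitochondrial protease controls ribosome assembly, went from 93.00 and 79.1 CPM in H1 and 127 and 101 CPM in MEL1 to 34.1 and 36.05 CPM in H1 and 44.3 and 34.5 CPM in MEL1. For both genes the 4 S3 libraries lay together and below the 4 S0 libraries in both lines. MRPL16 fell by 1.42 on the log2 scale (SE 0.20, adjusted p = 5.03e-05, edgeR quasi-likelihood test, Benjamini-Hochberg). MRPL32 fell by 1.42 on the log2 scale (SE 0.21, adjusted p = 7.79e-05, edgeR quasi-likelihood test, Benjamini-Hochberg).

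MRPL18, related to the bacterial protein that binds 5S ribosomal RNA, went from 25.9 and 20.01 CPM in H1 and 51.01 and 33.9 CPM in MEL1 to 11.04 and 8.65 CPM in H1 and 9.51 and 6.996 CPM in MEL1. MRPL33, a small zinc-ribbon relative of bacterial L33, went from 69.8 and 61.2 CPM in H1 and 352 and 252 CPM in MEL1 to 42.6 and 40.99 CPM in H1 and 48.5 and 42.9 CPM in MEL1. MEL1 S0 was high for both, and all S3 values were below all S0 values. MRPL18 fell by 1.84 on the log2 scale (SE 0.33, adjusted p = 0.000405, edgeR quasi-likelihood test, Benjamini-Hochberg). MRPL33 fell by 1.69 on the log2 scale (SE 0.36, adjusted p = 0.0018, edgeR quasi-likelihood test, Benjamini-Hochberg), and with H1 alone the value was -0.67, under 2-fold. The other 4 genes of the group fell by between 1.03 (MRPL44, a ribonuclease III-like protein mutated in infantile cardiomyopathy) and 1.45 (MRPL35) on the log2 scale, each with no overlap between the stages. MRPL40, with input counts of 0 to 5 per library, could not be read either way.

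In the mitochondrial small subunit the genes that fell were MRPS9, MRPS14, MRPS21, MRPS28, MRPS30 and MRPS34. MRPS9 stood at 79.96 and 70.7 CPM in H1 and 54.7 and 68.98 CPM in MEL1 at S0 and at 41.8 and 37.7 CPM in H1 and 16.3 and 22.3 CPM in MEL1 at S3. MRPS34, mutated in some cases of Leigh syndrome, went from 252 and 252 CPM in H1 and 156 and 174 CPM in MEL1 to 96.4 and 106 CPM in H1 and 104 and 106 CPM in MEL1. Neither gene overlapped between the stages, and MRPS34 was highest in H1 S0. MRPS9 fell by 1.30 on the log2 scale (SE 0.23, adjusted p = 0.000434, edgeR quasi-likelihood test, Benjamini-Hochberg). MRPS34 fell by 1.01 on the log2 scale (SE 0.18, adjusted p = 0.000403, edgeR quasi-likelihood test, Benjamini-Hochberg). MRPS30, which structures place in the large subunit despite its symbol, had counts of 60 and 47 in H1 and 66 and 79 in MEL1 at S0 and 46 and 39 in H1 and 4 and 9 in MEL1 at S3. Most of its fall was in MEL1, and without the MEL1 S3 and S4 preparations its change was -0.70 (adjusted p = 0.158 by edgeR's quasi-likelihood test and Benjamini-Hochberg).

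Of the 4 antisense and readthrough genes, 2 had a positive and 2 a negative change. MRPL20-AS1, antisense to MRPL20, stood at 33.6 and 38.2 CPM in H1 and 27.6 and 38.5 CPM in MEL1 at S0 and at 45.1 and 50.3 CPM in H1 and 44.04 and 50.8 CPM in MEL1 at S3, above every S0 library. Its change of 0.47 was under 2-fold. RPL36A-HNRNPH2 (0.15) and RPL17-C18orf32 (-0.11) overlapped between the stages. RPS10-NUDT3 fell by 1.27 on the log2 scale, from 22.2 and 17.7 CPM in H1 and 29.6 and 20.2 CPM in MEL1 to 11.4 and 18.9 CPM in H1 and 6.76 and 6.09 CPM in MEL1, with overlap in H1.

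**Figure D3:**
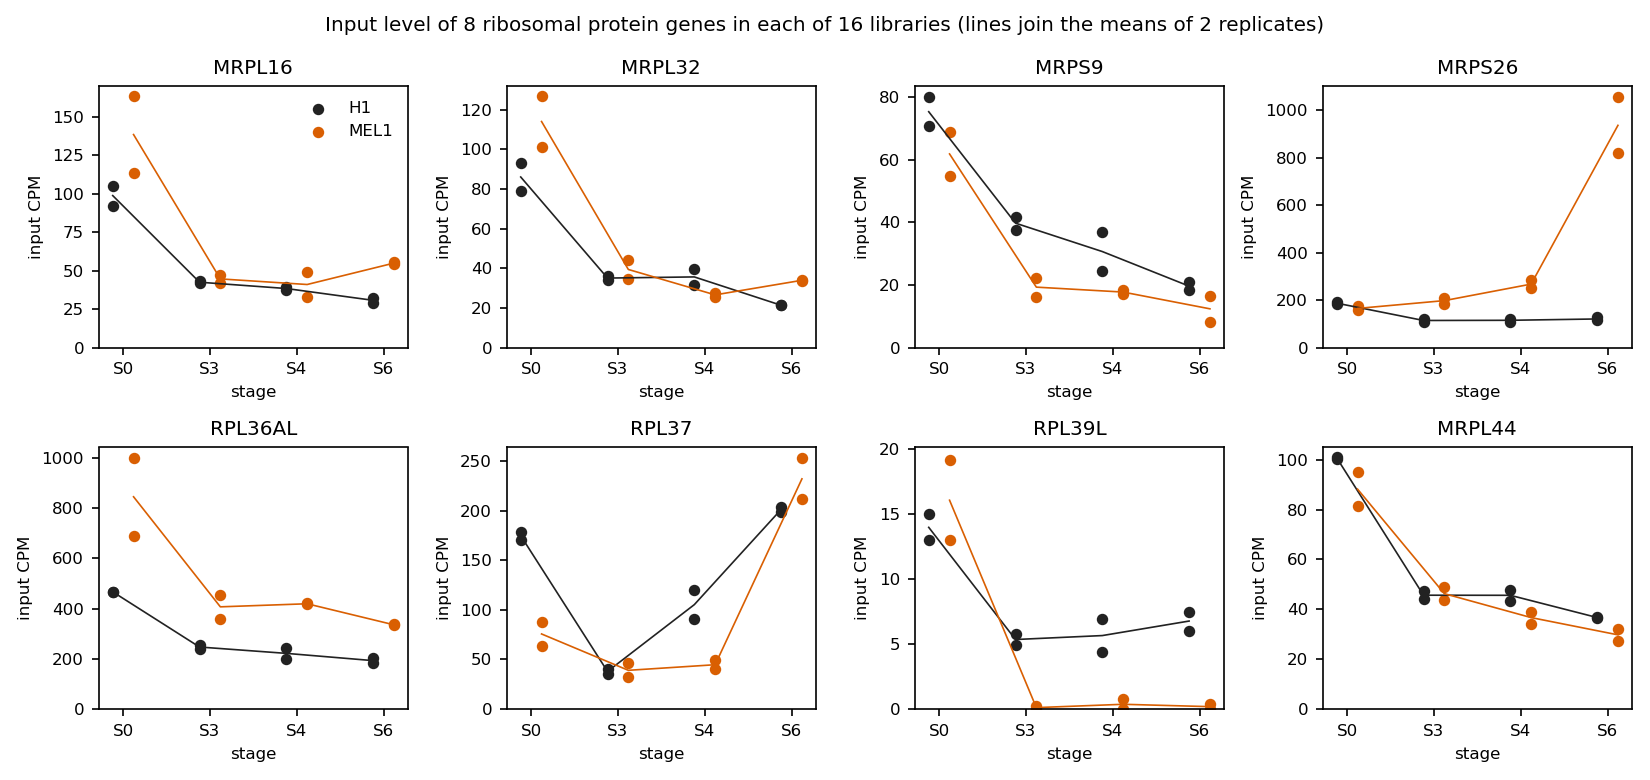
Input level (CPM, linear axis from 0) of 8 genes in each library, by stage and line, with lines through the means of 2 replicates. MRPL16, MRPL32 and MRPS9 are lower at S3, S4 and S6 than at S0 in both lines, while MRPS26 reaches 819 and 1056 CPM in MEL1 S6.

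Between posterior foregut and pancreatic progenitors no member was called. At S4 against S3, 0 of 65 were higher (1.49% of all genes tested) and 0 lower (0.351% of all genes tested) in edgeR's quasi-likelihood test. At an unadjusted p under 0.05 there were 2 higher and 1 lower, and DESeq2 called 0 in either direction. Member changes ran from -0.54 to 0.86 on the log2 scale, with a median of -0.10 (all genes 0.02). RPL37 was at the upper end, at 90.9 and 119.6 CPM in H1 and 40.3 and 49.05 CPM in MEL1, higher than at S3 in H1 and overlapping it in MEL1. With H1 alone 4 members were called, 3 higher and 1 lower, and without the MEL1 S3 and S4 preparations 2 were higher. No share over all genes is given for these fits, which are not the fit by line that follows. With a stage change fitted for each line, 2 members were higher and 0 lower in H1, against 343 and 150 of 7973 genes.

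The step from pancreatic progenitors to β-like cells raised 1 member, RPL37 (2.85% of all genes tested were higher), and lowered 0 (2.33% of all genes tested). For lower genes edgeR gave 2 members at an unadjusted p under 0.05, and DESeq2 called 0 lower and 4 higher. At S6 RPL37 stood at 204 and 199 CPM in H1 and 252 and 211 CPM in MEL1, above all 4 S4 libraries and above the S0 values of the same line. RPL37 rose by 1.65 on the log2 scale (SE 0.30, adjusted p = 0.00459, edgeR quasi-likelihood test, Benjamini-Hochberg), with 0.93 in H1 and 2.37 in MEL1. Without the MEL1 S4 preparations it was 1.25 (adjusted p = 0.105 by edgeR's quasi-likelihood test and Benjamini-Hochberg) and 0 members were called. Without H1 S4 replicate 2, H1 S6 replicate 1 or 2, or MEL1 S0 replicate 1, the count was 2 instead of 1. This comparison shares its S4 libraries with the one before.

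Across the whole course, from undifferentiated to β-like cells, 21 members were lower (13.8% of all genes tested) and 2 higher (17.5% of all genes tested). Lower genes numbered 4 of 14 in the cytosolic large subunit, 0 of 6 in the cytosolic small subunit, 12 of 26 in the mitochondrial large subunit, 5 of 15 in the mitochondrial small subunit and 0 of 4 among the rest. For the cytosolic small subunit edgeR gave 2 lower at an unadjusted p under 0.05 and DESeq2 called 0, and for the rest these were 1 and 0. Medians were -0.47, -0.65, -0.90, -0.77 and 0.15 on the log2 scale, against 0.03 over all genes. All 26 mitochondrial large-subunit genes had a negative change, against 3893 of all 7973 genes tested. Scaling by library size only moved the median of all genes to 0.34, kept the sign of the 4 subunit medians and left 12 members lower and 3 higher. The S0 libraries are those of the S3 comparison, so the results are not independent.

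MRPL32, MRPS9, MRPL44 and MRPL16 were again among the lower genes. MRPL32 stood at 21.3 and 21.4 CPM in H1 and 33.6 and 34.3 CPM in MEL1 at S6, MRPS9 at 20.9 and 18.3 CPM in H1 and 8.22 and 16.5 CPM in MEL1 and MRPL44 at 36.4 and 37.04 CPM in H1 and 27.3 and 32.3 CPM in MEL1. MRPL44 had started at 101 and 100.3 CPM in H1 and 95.02 and 81.4 CPM in MEL1. For each of these genes all S6 libraries were below all S0 libraries. MRPL32 fell by 1.87 on the log2 scale (SE 0.21, adjusted p = 6.58e-06, edgeR quasi-likelihood test, Benjamini-Hochberg). MRPS9 fell by 2.14 on the log2 scale (SE 0.24, adjusted p = 6.39e-06, edgeR quasi-likelihood test, Benjamini-Hochberg). MRPL44 fell by 1.51 on the log2 scale (SE 0.15, adjusted p = 1.41e-06, edgeR quasi-likelihood test, Benjamini-Hochberg). None of the 3 differed between the lines past an adjusted p of 0.1 in that comparison.

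MRPL15, MRPL18, MRPL33 and MRPS30 fell by 1.77, 2.02, 1.90 and 2.27 on the log2 scale, all without overlap. With H1 alone MRPL33 was at -0.998, under 2-fold. MRPL15 went from 49.3 and 34.8 CPM in H1 and 33.7 and 41.1 CPM in MEL1 to 20.6 and 13.2 CPM in H1 and 8.22 and 8.07 CPM in MEL1. MRPL9, MRPL27, MRPL34, MRPL45, MRPL47, MRPL50, MRPS28, MRPS31 and MRPS34 made up the rest of the mitochondrial genes that were lower, with changes of -1.03 to -1.57. Overlap between S0 and S6 was seen for MRPL27, which is near the catalytic centre and higher in MEL1 than in H1, and for MRPS31.

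Cytosolic genes lower at S6 were RPL36, RPL36AL, RPL37A and RPL39L. RPL36AL, which encodes a near copy of RPL36A, stood at 184 and 202 CPM in H1 and 337 and 334 CPM in MEL1 at S6. These values were below all 4 S0 libraries, and RPL36AL fell by 1.30 on the log2 scale (SE 0.15, adjusted p = 7.51e-06, edgeR quasi-likelihood test, Benjamini-Hochberg), nearly alike in H1 (-1.27) and MEL1 (-1.33). RPL37A reached counts of 23 and 14 in H1 and 11 and 19 in MEL1 at S6, with overlap in MEL1. RPL36 had counts of 41 and 33 in H1 and 9 and 25 in MEL1 at S0 and 29 and 19 in H1 and 1 and 4 in MEL1 at S6, with overlap, and changed by -1.16. RPL41 and RPL13A were not called: RPL41 stood at 4027 and 4060 CPM in H1 and 7555 and 6309 CPM in MEL1 (-0.55), and RPL13A had a difference of -0.28.

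The 2 higher genes were RPS23 and MRPS26. RPS23, a protein of the decoding centre, had low counts of 12 and 6 in H1 and 2 and 6 in MEL1 at S0 and 27 and 22 in H1 and 9 and 6 in MEL1 at S6, with overlap. RPS23 rose by 1.41 on the log2 scale (SE 0.51, adjusted p = 0.0336, edgeR quasi-likelihood test, Benjamini-Hochberg). MRPS26, a protein found in mitochondrial and not bacterial ribosomes, stood at 184 and 191 CPM in H1 and 157 and 174 CPM in MEL1 at S0, 109.6 and 121 CPM in H1 and 251 and 285 CPM in MEL1 at S4 and 127 and 114 CPM in H1 and 819 and 1056 CPM in MEL1 at S6. It was highest in MEL1 S6 and below S0 in H1 S6, so the pooled rise describes MEL1 alone, in libraries that also carried hepatic transcripts, whose part was not tested: 2.50 in MEL1 against -0.63 in H1. The line difference of 3.14 had an SE of 0.21 and an adjusted p of 1.33e-09 by edgeR's quasi-likelihood test and Benjamini-Hochberg.

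The lines were compared over all stages in the same fit. In MEL1 against H1, 3 members were higher (8.85% of all genes tested) and 6 lower (10.2% of all genes tested). MRPL27, MRPL33 and MRPS26 were the higher genes, and RPL36, RPL39L, RPS2, RPS12, RPS23 and MRPL57 the lower. MRPL27 stood at 82.1 and 73.9 CPM in H1 and 234 and 198 CPM in MEL1 at S0 and at 44.2 and 39.03 CPM in H1 and 94.5 and 78.2 CPM in MEL1 at S6, and MEL1 was above H1 at every stage. Its difference was 1.11 (SE 0.12, adjusted p = 9.54e-06) by edgeR's quasi-likelihood test and Benjamini-Hochberg. RPS12 was at 173 and 172 CPM in H1 and 61.5 and 83.1 CPM in MEL1 at S0 and 99.8 and 79.97 CPM in H1 and 29.4 and 24.7 CPM in MEL1 at S4, lower in MEL1 at all 4 stages, with a difference of -1.26 (SE 0.17, adjusted p = 6.17e-05) by edgeR's quasi-likelihood test and Benjamini-Hochberg. MRPL57 was at 53.1 and 46.8 CPM in H1 and 27.6 and 20.4 CPM in MEL1 at S0, also lower in MEL1 at all stages.

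Several of these calls lay near the 2-fold cut and missed it without 1 library, each with an adjusted p still under 0.05 in edgeR's quasi-likelihood test. MRPS26 was 1.17 higher in MEL1 with all libraries, and 0.96 or 0.94, under 2-fold, without H1 S6 replicate 1 or 2. RPS23 was at -0.99, -0.98 and -0.94 without H1 S0 replicate 1, MEL1 S0 replicate 1 and MEL1 S4 replicate 2. MRPL57 was at -0.98, -0.997 and -0.97 without MEL1 S0 replicate 2, MEL1 S3 replicate 1 and MEL1 S4 replicate 2. Without the MEL1 S4 preparations 2 members were higher and 5 lower, and without the MEL1 S3 and S4 preparations 3 were higher and 3 lower, with RPL39L (-0.97), RPS12 (-0.88) and RPS23 (-0.97) no longer called. Library size alone moved the median of all genes in this comparison to -0.39, which left 12 members lower and 0 higher. The median of the mitochondrial large subunit was 0.19 with TMM and -0.14 with library size, so its sign depends on the scaling, while both cytosolic medians were negative with each.

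Stage courses often differed between H1 and MEL1. The line by stage interaction passed an adjusted p under 0.1 for 36 of 65 members, against 59.4% of all genes tested, so the members were near the background. By class these were 11 of 14, 2 of 6, 13 of 26, 8 of 15 and 2 of 4. RPL13A illustrates the cytosolic large subunit: 7560 and 7626 CPM in H1 and 3790 and 3934 CPM in MEL1 at S0 and 3300 and 3325 CPM in H1 and 4721 and 4010 CPM in MEL1 at S3. H1 S0 held the highest values of any library and S3 was lower, while both MEL1 S3 libraries were above MEL1 S0, and the difference of 1.37 was the largest of its contrasts. MRPS25 went from 65.5 and 59.3 CPM in H1 and 51.4 and 52.4 CPM in MEL1 at S0 to 34.1 and 29.9 CPM in H1 and 128 and 97.3 CPM in MEL1 at S3, lower in H1 and higher in MEL1. Its MEL1 values were 38.1 and 29.9 CPM at S6, below MEL1 S0.

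Other gene lists were read from the same fit, in which 13.8% of all genes were lower in each comparison with S0, and 15% (S3) and 17.5% (S6) higher. Of 78 tested ribosome biogenesis genes (nucleolar assembly factors and RNA polymerase I), 28 were lower at S3 than at S0 (35.9%) and 39 at S6 (50%), with medians of -0.83 and -1.05 on the log2 scale. Cytosolic translation factors (43 tested) gave 7 lower at S3 (16.3%, near the share of all genes) and 10 lower (23.3%) and 1 higher at S6 (medians -0.56 and -0.70). Mitochondrial translation and ribosome assembly genes (59 tested) gave 2 higher and 14 lower (23.7%) at S3 and 20 lower (33.9%) at S6 (medians -0.45 and -0.72). Proliferation markers (20 tested) gave 15 lower at S3 (75%) and 12 at S6 (60%; medians -1.39 and -1.44). Regulators of the mTOR and MYC pathways (21 tested) gave 3 higher (14.3%, near or below the share of all genes) and 1 lower in each of these comparisons (medians 0.20 and 0.23). Whether proliferation and ribosomal protein levels are linked was not tested. The 15 transcripts of the mitochondrial genome in the table gave 5 lower at S3 and 14 at S6, with medians of -0.89 and -1.47. By line the medians were -0.19 in H1 and -1.72 in MEL1 at S3, and -1.64 and -1.45 at S6. This contrast between lines was not tested.

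IP over input compares a peak's CPM in IP with its CPM in input, as a log2 ratio. Ratios given for single preparations use the IP and input library of that preparation. Counts of peaks, medians and fitted values come from a fit by stage with line as a covariate. That fit, also used for the m6A changes below, does not pair the 2 libraries of a preparation. Peaks were called by the authors on IP enrichment, so the ratios describe the peaks and do not test methylation independently. At S0, 28 of 144 member peaks had IP at least 2-fold above input (30.7% of all peaks tested) and 64 at least 2-fold below (24.9% of all peaks tested). At S3 these were 24 (30.3% of all peaks tested) and 76 (31% of all peaks tested). S4 gave 14 (20.8% of all peaks tested) and 79 (32.1% of all peaks tested), and S6 gave 22 (28.4% of all peaks tested) and 80 (34.6% of all peaks tested). Member medians were -0.88, -1.19, -1.75 and -1.58 from S0 to S6, against 0.28, 0.07, -0.30 and -0.12 for all peaks. How many peaks pass depends on the scaling between IP and input: DESeq2 gave 14, 9, 16 and 12 above and RLE factors 13, 8, 14 and 12.

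**Figure D4:**
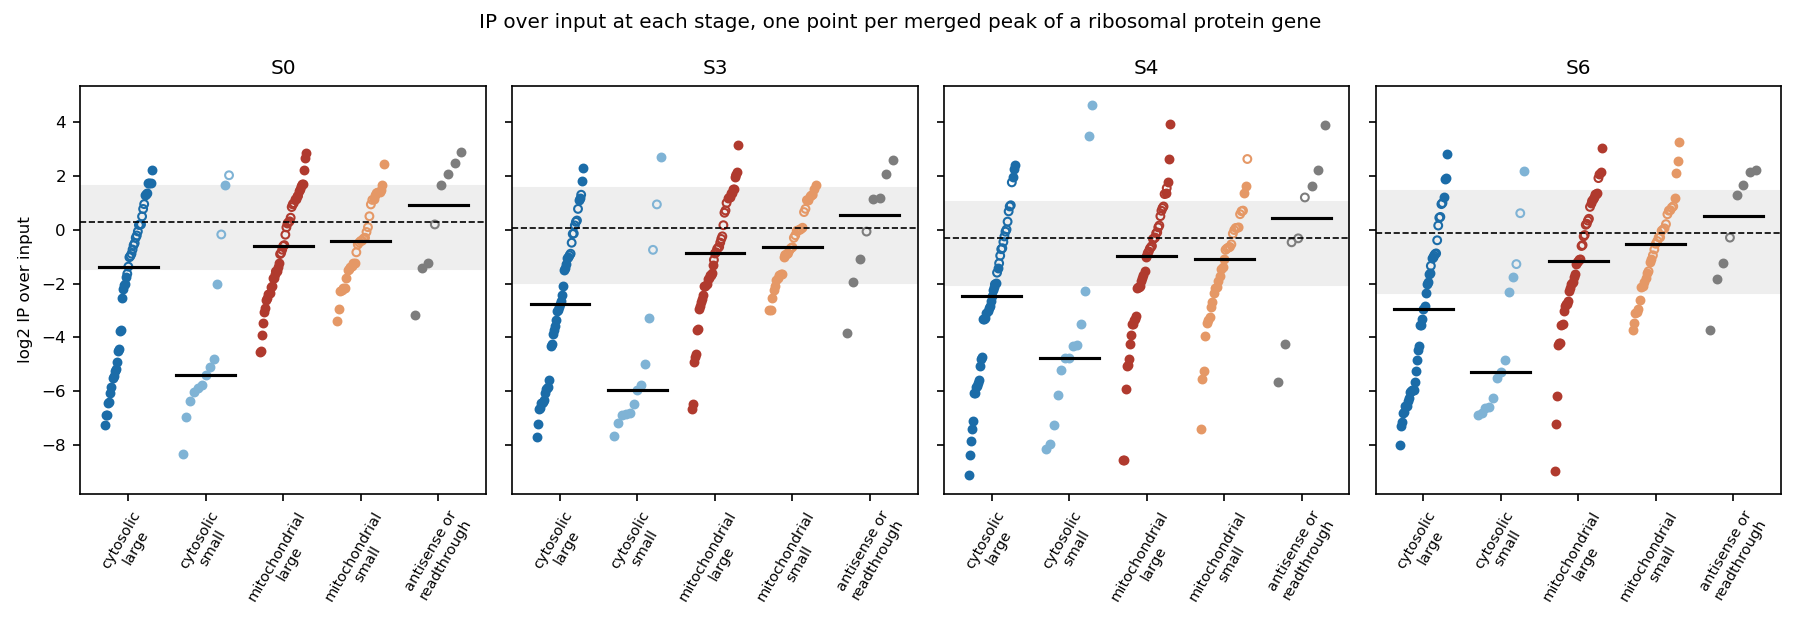
Log2 IP over input of each of the 144 peaks (points, filled where at least 2-fold with an adjusted p under 0.1) by class at each stage, with the class median (bar), the median of all peaks (dashed line) and their middle 50% (grey band). The cytosolic small subunit has the lowest median at every stage, -4.76 to -5.95, and the antisense or readthrough class the highest, 0.44 to 0.93.

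Classes were not tested against each other in IP over input. At S0 the medians were -1.37 in the cytosolic large subunit (45 peaks), -5.40 in the cytosolic small subunit (13 peaks), -0.61 in the mitochondrial large subunit (45 peaks), -0.42 in the mitochondrial small subunit (33 peaks) and 0.93 among antisense and readthrough genes (8 peaks). Peaks are named here by the position that the count table gives them. Among the lowest cytosolic peaks at S0 was RPL13A at 1001, with IP counts of 2 and 4 in H1 and 0 and 0 in MEL1. The highest were RPL4 at 1288, fitted at 2.22 (SE 0.88) from few input reads, and RPS24 at 5801 (input counts of 2 and 4 in H1 and 0 and 1 in MEL1).

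At S0, S3 and S6 MRPL35 at 2251 was fitted highest among mitochondrial large-subunit peaks, and at S4 MRPL40 at 151 and MRPL27 at 78 were above it. MRPL40 had S4 input counts of 3 and 1 in H1 and 0 and 0 in MEL1, so its place gives no rank. The log2 IP over input of MRPL35 was 3.32 and 3.44 in H1 and 2.09 and 2.82 in MEL1 at S0, 2.99 and 2.83 in H1 and 3.23 and 3.43 in MEL1 at S3, 2.02 and 1.33 in H1 and 2.46 and 1.999 in MEL1 at S4 and 2.83 and 2.71 in H1 and 3.05 and 3.48 in MEL1 at S6. All 16 preparations were above input, lowest in H1 S4. At S0 MRPL47 at 721 was lowest of that class at -4.54 (SE 0.85). In the mitochondrial small subunit at S0 MRPS25 at 1834 was highest at 2.44 (SE 0.53) and MRPS16 at 795 lowest at -3.40 (SE 0.78). RPL36A-HNRNPH2 at 351 had ratios of 2.91 and 2.72 in H1 and 2.96 and 2.93 in MEL1 at S0 and 5.04 and 3.89 in H1 and 3.50 and 2.08 in MEL1 at S4, above input in every preparation. RPL17-C18orf32 at 880, the lowest of its class at S0, was fitted at -3.16 (SE 0.95).

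A change in m6A was tested per peak as the difference in IP over input between stages. At S3 against S0, 0 of 144 member peaks were higher (0.0306% of all peaks tested) and 0 lower (0.0192% of all peaks tested) in edgeR's quasi-likelihood test. At an unadjusted p under 0.05 there were 1 higher and 11 lower, and DESeq2 called 0 and 2. The member median was -0.40, beside -0.20 for all peaks. The median SE of a member peak, 0.84 on the log2 scale, was larger than for input levels (0.24). With the RNA preparation, which input and IP share, as a replicate block, 1 member peak was called. With H1 alone 1 peak was called higher and 15 lower, and with MEL1 alone 3 and 9. No share over all peaks is given for the fits of 1 line.

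At S4 against S3, 1 member peak was higher (0.751% of all peaks tested) and 12 lower (5.85% of all peaks tested). At S6 against S4, 12 were higher (5.31% of all peaks tested) and 2 lower (2.26% of all peaks tested). These comparisons share the S4 libraries. In H1 these stood apart: 1604 of 26104 peaks (6.14%) had no IP read in either H1 S4 library, against 51 to 167 peaks at the other H1 stages of similar depth. In MEL1 S4 it was 3289 peaks (12.6%), at 2483580 and 2378881 counts, but MEL1 S0, S3 and S6 also had 878, 1428 and 2046 such peaks, the last (7.84%) above H1 S4. Among the members 14 of 144 peaks had no IP read in H1 S4, 28 in MEL1 S4 and 15 in MEL1 S6. With the RNA preparation as a replicate block, 13 peaks were called in each comparison, 11 of them among the calls above. Without the MEL1 S4 preparations the calls were 12 higher and 26 lower for S4 against S3, and 20 higher and 12 lower for S6 against S4. No share over all peaks is given for that fit, so the larger counts are not read as a result about the members. DESeq2 gave 8 and 8, then 10 and 9, and the member median at S4 against S3 was -0.21 with TMM, 0.28 with RLE factors and 0.35 in DESeq2, so no direction is given for the group, and the part of sparse S4 IP libraries was not tested.

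MRPS14 at 1945 kept both calls in all 28 alternatives tried. Its IP counts were 109 and 99 in H1 and 52 and 47 in MEL1 at S3, 7 and 5 in H1 and 0 and 0 in MEL1 at S4 and 254 and 317 in H1 and 159 and 39 in MEL1 at S6, beside input counts of 38 and 68 in H1 and 26 and 31 in MEL1 at S4. IP reads were fewest at S4 in both lines. The MRPS14 peak fell by 4.36 on the log2 scale (SE 0.74, adjusted p = 0.00166, edgeR quasi-likelihood test, Benjamini-Hochberg) and then rose by 5.30 (SE 0.74, adjusted p = 0.000363, same test). MRPL34 has 2 peaks, and the one at 1501 had 0 IP reads in all 4 S4 libraries, with 65 and 84 in H1 and 21 and 9 in MEL1 at S3 and 46 and 52 in H1 and 0 and 13 in MEL1 at S6. With 3 counts per S4 library as a floor, its IP over input was at least 6.97-fold lower at S4 than at S3. With the same floor it was at least 6.75-fold higher at S6 than at S4. These bounds pool both lines. With MEL1 alone neither change was called (adjusted p = 0.123 and 0.194 by edgeR's quasi-likelihood test and Benjamini-Hochberg). The one at 1251 went from ratios of 1.19 and 1.02 in H1 and 1.09 and 1.39 in MEL1 at S3 to 0.08 and -0.04 in H1 and -0.78 and -0.30 in MEL1 at S4 and 0.93 and 0.67 in H1 and 0.84 and 0.95 in MEL1 at S6, lowest at S4 in both lines.

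MRPL57 at 351 is a case where the lines started apart, with ratios of 1.34 and 1.46 in H1 and 2.96 and 2.53 in MEL1 at S3, -1.38 and -1.35 in H1 and 0.74 and 0.94 in MEL1 at S4 and 1.89 and 1.76 in H1 and 2.55 and 2.37 in MEL1 at S6. Each line was lowest at S4. It fell by 2.29 on the log2 scale (SE 0.53, adjusted p = 0.0183, edgeR quasi-likelihood test, Benjamini-Hochberg), and without H1 S4 replicate 1 the change was -1.43 (adjusted p = 0.265 by edgeR's quasi-likelihood test and Benjamini-Hochberg). RPL28 at 6151 had IP counts of 80 and 78 in H1 and 60 and 57 in MEL1 at S3 and 26 and 9 in H1 and 0 and 2 in MEL1 at S4, and without H1 S4 replicate 2 its S4 call was lost (-2.62, adjusted p = 0.117 by edgeR's quasi-likelihood test and Benjamini-Hochberg). RPL36AL at 547, RPL17-C18orf32 at 630 and MRPL9 at 63 were called lower at S4, and without H1 S4 replicate 1 stood at -1.09, -1.47 and -1.17 with no call. MRPL9 was also not called without H1 S3 replicate 1 (-1.46).

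**Figure D5:**
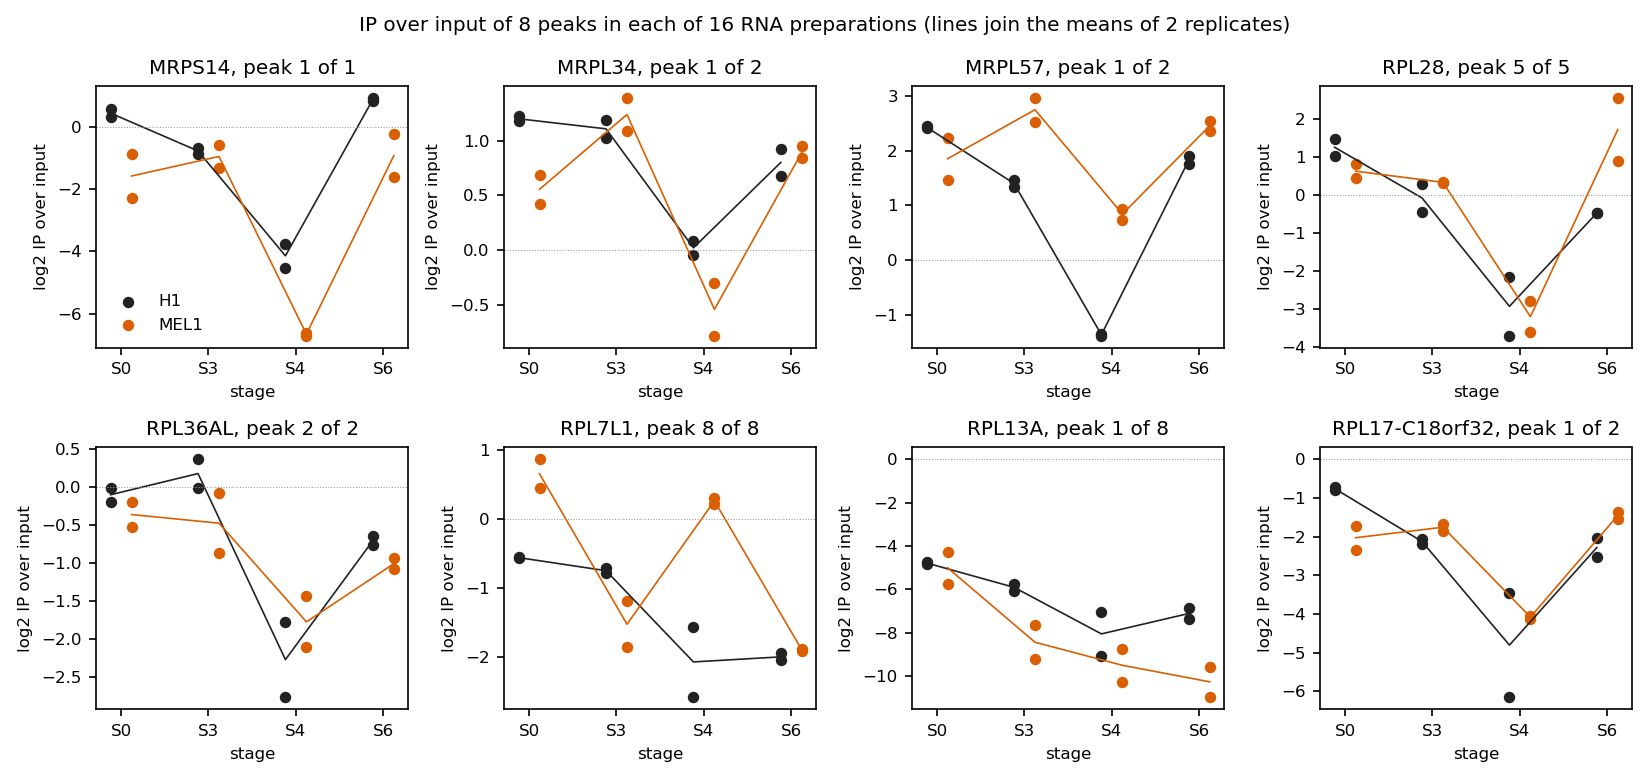
Log2 IP over input of 8 peaks in each of the 16 preparations by stage and line, with lines through the means of 2 replicates and peaks numbered in order of position within their gene. The peaks of MRPS14, MRPL34, MRPL57, RPL28, RPL36AL and RPL17-C18orf32 are lowest at S4 in both lines, while RPL7L1 and RPL13A are lower at S6 than at S0.

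The remaining S4 calls included MRPL18 at 1251, MRPL44 at 251, MRPS16 at 695 and MRPS18A at 185, all lower than at S3. MRPL18 lost its call without any 1 H1 S3 or H1 S4 library, MEL1 S3 replicate 2 or MEL1 S4 replicate 2 (-1.97 to -3.23). MRPS16 lost it without any 1 S3 library of either line or any 1 H1 S4 or H1 S6 library (-2.98 to -5.11), and with the RNA preparation as a replicate block (adjusted p = 0.163 by edgeR's quasi-likelihood test and Benjamini-Hochberg). With MEL1 alone the values were -0.16 for MRPS16 and -1.36 for MRPL18, neither called. From S4 to S6 MRPL44, MRPS30 at 1651 and MRPL9 were among the higher peaks. MRPS18B at 201 was called higher on IP counts of 0 in every S4 library and 8 and 7 in H1 and 19 and 0 in MEL1 at S6. With 3 counts per S4 library as a floor its difference was -0.40, so these counts set no lower bound on a rise, and it was not called in 7 of the 16 fits without 1 library or with the replicate block. RPL36A-HNRNPH2 at 351 and RPL37 at 2004 were the lower peaks, and without H1 S4 replicate 1, H1 S6 replicate 1 or 2 or MEL1 S6 replicate 2 the former was not called (-1.26 to -1.67), nor with MEL1 alone (-0.56). RPL37 at 2004 had S4 IP counts of 0 and 0 in H1 and 10 and 0 in MEL1, and without MEL1 S4 replicate 1 its value was 0.33 instead of -5.12, a turn in direction. With the replicate block it was -3.315 and not called. Without single libraries the number of S4 against S3 calls was 8 (H1 S3 replicate 1), 3 (H1 S4 replicate 1), 8 (MEL1 S3 replicate 2) and 23 (MEL1 S4 replicate 1) instead of 13. For S6 against S4 it was 7 (H1 S4 replicate 1), 8 (H1 S6 replicate 1), 7 (H1 S6 replicate 2), 8 (MEL1 S6 replicate 1) and 9 (MEL1 S6 replicate 2) instead of 14.

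From S0 to S6, 0 member peaks were higher (0.0766% of all peaks tested) and 7 lower (1.18% of all peaks tested). For higher peaks edgeR gave 0 at an unadjusted p under 0.05, and DESeq2 called 0 higher and 13 lower. Of the 7, 5 belonged to the cytosolic large subunit (RPL13A at 151, RPL37 at 204 and 2004, RPL7L1 at 4201 and 5401) and 2 to the mitochondrial large subunit (MRPL10 at 465 and MRPL50 at 3183). RPL7L1 at 5401 had ratios of -0.55 and -0.57 in H1 and 0.44 and 0.86 in MEL1 at S0 and -1.95 and -2.05 in H1 and -1.88 and -1.92 in MEL1 at S6. RPL13A at 151, a depleted peak, had -4.83 and -4.74 in H1 and -4.26 and -5.75 in MEL1 at S0 and -7.37 and -6.86 in H1 and -10.98 and -9.56 in MEL1 at S6. Those MEL1 S6 values rest on IP counts of 1 and 2 and are no measured sizes. For both peaks, each S6 preparation was below every S0 preparation. RPL7L1 at 5401 fell by 2.13 on the log2 scale (SE 0.56, adjusted p = 0.084, edgeR quasi-likelihood test, Benjamini-Hochberg). RPL13A at 151 fell by 3.08 on the log2 scale (SE 0.75, adjusted p = 0.0702, edgeR quasi-likelihood test, Benjamini-Hochberg).

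MRPL50 at 3183 fell by 1.998 on the log2 scale (SE 0.52, adjusted p = 0.084, edgeR quasi-likelihood test, Benjamini-Hochberg), from ratios of -0.21 and -0.33 in H1 and 0.24 and 0.98 in MEL1 at S0 to -1.74 and -1.77 in H1 and -2.17 and -1.28 in MEL1 at S6. MRPL10 at 465, in a protein of the stalk base, had S0 IP counts of 0 and 7 in H1 and 28 and 41 in MEL1 and 0 in all S6 libraries, at least 3.39-fold lower with 3 counts per library as a floor. That bound pools both lines, and with H1 alone the peak was not called. RPL37 at 204 had IP counts of 5 and 19 in H1 and 69 and 27 in MEL1 at S0 and 0 and 5 in H1 and 0 and 0 in MEL1 at S6. Fits without 1 library ended the calls of RPL7L1 at 4201 (11 of 16), RPL37 at 2004 (10), MRPL10, MRPL50 and RPL7L1 at 5401 (9 each), RPL37 at 204 (8) and RPL13A (6). All 7 adjusted p-values lay between 0.0702 and 0.0881 by edgeR's quasi-likelihood test and Benjamini-Hochberg, close to the threshold. The count was 0 without H1 S4 replicate 1, H1 S6 replicate 1, MEL1 S0 replicate 1 or 2, or MEL1 S6 replicate 1 or 2, 1 without H1 S3 replicate 1 or 2, and 2 without H1 S6 replicate 2. Without the MEL1 S4 preparations it was 14, with no share over all peaks given for that fit. With the RNA preparation, which input and IP share, as a replicate block it was 0, with adjusted p-values of 0.14 to 0.305 for the 7 peaks by edgeR's quasi-likelihood test and Benjamini-Hochberg. It was 1 with RLE factors and 0 with IP thinned to the shallowest library.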

How the data were processed

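Raw read counts per merged m6A peak were used as deposited: the authors aligned the reads, called and merged the peaks and counted input and IP reads in each. Gene symbols were matched to Ensembl identifiers of version 94, for 7938 of 7978 genes. Input counts were summed per gene for input tests, and IP and input counts were kept per peak for m6A tests. Features with a total of at least 10 counts were kept, which left 7973 genes and all 26104 peaks. Scaling was by TMM. Tests used edgeR 4.0.16 (glmQLFit and glmQLFTest, line and stage as factors) in R 4.3.3 with limma 3.58.1, with Benjamini-Hochberg adjustment over all features, and a call needed an adjusted p under 0.1 and at least 2-fold. An m6A change is the stage by library type interaction. The main fit held no term for the RNA preparation, which was added only in the replicate block. DESeq2 1.42.0 was an alternative. The code was tested on simulated data. Figures were made with matplotlib 3.10.9 in Python 3.11.15.

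Called features named individually in the alternatives were the 10 with the largest change per comparison, and the 3 genes of each class with the most counts were named by level. Results for 1 gene and 1 promoter sequence are not reported here. The members, marker genes and gene lists were chosen with earlier results of these data known. For member genes the median SE of a log2 change was 0.242 in input, and for member peaks 0.837 in m6A change.

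The main limits are as follows. Peaks were called on these libraries, so genes without a peak are unseen and IP over input is not an independent test. The paper calls the samples biologically independent, and the labels do not say whether replicates were separate differentiations. Read assignment among pseudogene copies, and the strand used, are not stated. Sums over peaks are not transcript levels, and m6A stoichiometry was not measured.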

Additional observations from a re-analysis of the deposited data

Results flagged for a closer look

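Of the members, 36 had a line by stage interaction, and the 10 below had the largest difference between lines (MEL1 minus H1) in the log2 change of a stage comparison. Each was listed because the lines differed. RPL4 differed by -5.903 from S0 to S3, with S0 counts of 5 and 2 in H1 and 18 and 6 in MEL1 and S3 counts of 12 and 17 in H1 and 0 and 1 in MEL1. RPL39L differed by -5.384 in the same comparison, with MEL1 S3 counts of 0 and 1. Both are fitted values that rest on 1 read in MEL1 S3 and are no measured sizes. RPL37A differed by -3.593 from S3 to S4, with counts of 3 and 4 in H1 and 19 and 8 in MEL1 at S3, and of 8 and 17 in H1 and 2 and 2 in MEL1 at S4.

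MRPS26 differed by 3.137 from S0 to S6, with -0.63 in H1 and 2.50 in MEL1. From S0 to S3 the differences were -2.745 for MRPS30, 2.079 for MRPS25, -2.076 for MRPL33, -1.67 for MRPS21 and -1.559 for RPS10-NUDT3. MRPL35 differed by 1.667 from S4 to S6. Of the 9 genes other than MRPS26, 7 differed in the comparison of S3 with S0, where MEL1 S3 carried hepatic transcripts (17490 and 14830 CPM) and H1 S3 few (151.8 and 156.1 CPM). Whether that bears on these genes was not tested. A search for a single library far from the others of its stage covered 20 class sums and found 0. It took both lines together, so replicates of a line that lie close hide each other, and finding 0 says little. At S6 the mitochondrial small subunit had 763.5 and 712.5 CPM in H1 and 1525 and 1721 CPM in MEL1 and was not found.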

How the results depend on the processing

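Results were recomputed under 31 alternatives, of which leaving out MEL1 S4, or MEL1 S3 and S4, was chosen after seeing the data. For named input results 750 of 774 comparisons kept direction and call, 24 were weaker and 0 reversed. For named m6A results it was 526 of 700, with 170 weaker and 4 reversed. Of 385 comparisons of member counts, 310 kept within 1.5 times and 75 did not. No share over all genes or peaks is given for the alternatives, so a changed count is not read as a result about the members. The cause was not tested in any case below.

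Reversed was RPL37 at 2004 from S4 to S6 (1.571 with H1 alone, 0.3305 without MEL1 S4 replicate 1, 0.8908 without MEL1 S4, 0.9271 without MEL1 S3 and S4, and -6.451 to 0.3305 over single preparations left out).

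Input calls moved as follows. S4 against S3 went from 0 to 4 with H1 alone, 1 with MEL1 alone and 2 without MEL1 S3 and S4. S6 against S4 went from 1 to 4 in DESeq2, 8 with MEL1 alone, 0 without MEL1 S4 and 2 without MEL1 S3 and S4. It was 2 without H1 S4 replicate 2, H1 S6 replicate 1, H1 S6 replicate 2 or MEL1 S0 replicate 1.

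For m6A, S3 against S0 went from 0 to 2 in DESeq2, 16 with H1 alone, 12 with MEL1 alone and 1 with the RNA preparation as a replicate block. S4 against S3 went from 13 to 7 with RLE factors, 6 without line in the model, 66 with H1 alone, 26 with MEL1 alone, 6 with thinned IP, 3 with counts summed per gene, 38 without MEL1 S4 and 37 without MEL1 S3 and S4. S6 against S4 went from 14 to 7 without line, 58 with H1 alone, 6 summed per gene, 32 without MEL1 S4 and 42 without MEL1 S3 and S4. S6 against S0 went from 7 to 13 in DESeq2, 1 with RLE factors, 0 without line, 28 with H1 alone, 19 with MEL1 alone, 0 with the RNA preparation as a replicate block, 1 with TMM within library types, 0 with thinned IP, 2 summed per gene, 14 without MEL1 S4 and 17 without MEL1 S3 and S4.

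IP over input at S0 went from 28 to 14 in DESeq2, 13 with RLE factors, 17 with MEL1 alone, 18 with thinned IP and 6 summed per gene. At S3 it went from 24 to 9 in DESeq2, 8 with RLE factors, 12 with thinned IP and 5 summed per gene. At S4 it went from 14 to 28 with H1 alone, 6 with MEL1 alone, 25 with TMM within library types, 9 summed per gene, 22 without MEL1 S4 and 23 without MEL1 S3 and S4. At S6 it went from 22 to 12 in DESeq2, 12 with RLE factors and 6 summed per gene.

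Leaving out each of 16 preparations gave 18 to 21 input calls for S3 against S0, 0 to 0 for S4 against S3, 1 to 2 for S6 against S4, 20 to 26 for S6 against S0, 7 to 11 between lines and 27 to 41 interactions. It gave 22 to 29, 19 to 24, 14 to 19 and 19 to 26 enriched peaks from S0 to S6, and 0 to 0, 3 to 23, 7 to 21 and 0 to 10 m6A calls for the same 4 stage comparisons in that order. S4 against S3 was 8 without H1 S3 replicate 1 or MEL1 S3 replicate 2, 3 without H1 S4 replicate 1 and 23 without MEL1 S4 replicate 1. S6 against S4 was 7, 8, 7, 8 and 9 without H1 S4 replicate 1, H1 S6 replicates 1 and 2 and MEL1 S6 replicates 1 and 2. S6 against S0 was 0, 1 or 2 for the preparations given in the report.

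With the replicate number as a replicate block the input counts were 19, 0, 1 and 23, with 41 interactions. Changes of equally numbered replicates had correlations of -0.0219 to 0.142 over 12 pairs. These were -0.0219 to 0.0555 in H1 and 0.0821 to 0.142 in MEL1, where 5 were over 0.1. At the depth of the shallowest IP library, 2378881 counts, the 13 m6A calls for S4 against S3 became 6, the 14 for S6 against S4 became 11 and the 7 for S6 against S0 became 0.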
